A study of Mus musculus with 6 samples.

Results

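The genes described here are those of the mouse major histocompatibility complex (MHC) and of the machinery that loads its peptides, as measured in bone marrow-derived mast cells. They were chosen by name: every noncontrol probe whose gene name begins with H2-, plus B2m, Tap1, Tap2, Tapbp, Psmb8, Psmb9, Psmb10, Cd74 and Ciita, with the brightest probe standing for each gene. This gave 50 of the 29603 genes named on the array, carried by 70 probes. Of these, 30 were class I genes, 10 class II genes, 2 class II partners (Cd74 and Ciita) and 7 processing genes (B2m, the transporter, tapasin and immunoproteasome genes). H2-Ke6 came in through its name alone. It is an older name of a steroid dehydrogenase gene that lies in the complex and does not code for an MHC molecule. Class was also given by name, and the probes of the class I genes H2-K2, H2-M5 and H2-Q5 are annotated to noncoding RefSeq transcripts.

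MHC class I molecules pair a heavy chain with β2-microglobulin and carry peptides cut in the cytosol, which nearly all nucleated cells show to CD8 T cells. The immunoproteasome cuts these peptides, the TAP transporter moves them into the endoplasmic reticulum, and tapasin helps to load them. MHC class II molecules are α and β chain pairs found mainly on professional antigen-presenting cells. The invariant chain (Cd74) guides them to endosomes, where H2-DM loads peptides and H2-DO (H2-Oa and H2-Ob) restrains H2-DM. Transcription of class II genes depends on the coactivator CIITA, which acts through factors bound to paired X and Y boxes of their promoters. Resting mast cells are known for ample class I and little class II.

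Each of 6 groups was measured on 1 single-colour Agilent array, and each RNA was a pool of 3 samples, so no group had a replicate and no p-value is given. Mast cells labelled Pla2g3-/- and Pla2g3+/+ mast cells were each arrayed after coculture on wild-type Swiss 3T3 fibroblasts, a mouse embryo line. Wild-type mast cells were arrayed after coculture on Lpar1-/- Swiss 3T3 fibroblasts and on Lpar1+/+ Swiss 3T3 fibroblasts. Mast cells labelled Pla2g3-/- and Pla2g3+/+ mast cells were also arrayed alone, without fibroblasts. All mast cells were grown from bone marrow with interleukin-3 at 10 ng/ml, and cocultures ran for 4 days with stem cell factor at 100 ng/ml. The labels do not say whether stem cell factor was also given to the cells kept alone. Pla2g3 codes for a secreted phospholipase A2 and Lpar1 for a lysophosphatidic acid receptor. The Lpar1-/- line came from single-cell cloning after Cas9 cutting, so it stands for 1 clone. The labels do not name the strain, sex, age or MHC haplotype of the mice.

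All levels are log2 of the processed signal minus the 75th percentile of the array, so 0 is the signal of a spot at that percentile. Differences are in log2 units, and a gene was counted as higher or lower at 2-fold. The Pla2g3 probe went against its label: it read -1.84 in labelled Pla2g3-/- cocultures against -7.31 in Pla2g3+/+ cocultures, and 0.51 in labelled Pla2g3-/- cells alone against -6.31 in Pla2g3+/+ cells alone. The labels do not say which exons the allele lacks, so whether this probe lies outside the deletion is not known. Why the probe read higher under the Pla2g3-/- label was not tested. The label could not be checked from these arrays, and every direction drawn from this genotype rests on it. The Lpar1 probe was not lower under the Lpar1-/- label: it read -3.89 on Lpar1-/- fibroblasts against -4.14 on Lpar1+/+ fibroblasts. It read -2.85 and -2.84 in labelled Pla2g3-/- and Pla2g3+/+ cells alone, so mast cells gave this signal too. The loss of Lpar1 in the fibroblasts could therefore not be checked on these arrays. Between 70.7% and 80.4% of spots were well above background on the 6 arrays, and none was saturated. The pair of wild-type cocultures, on Lpar1+/+ fibroblasts and as Pla2g3+/+ mast cells, lay on 1 slide and served as a yardstick in place of replicates. Over 21913 genes the SD of their difference was 0.25 and 95% lay within 0.53, and 3 of 40 MHC and processing genes lay outside that range (Cd74 at 0.54, H2-Q1 at 0.93 and H2-T3 at 0.58). None of 43 such genes differed 2-fold between them, beside 0.792% of 24004 genes higher and 0.167% lower on Lpar1+/+ fibroblasts. Both arrays without fibroblasts lay on another slide. An effect of the slide therefore cannot be told apart from one of coculture, whereas both genotype comparisons in coculture lay within a slide.

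Of the 50 genes, 36 were well above background on all 6 arrays, 8 on some arrays and 6 on none. The 36 comprised 19 of 30 class I genes, 7 of 10 class II genes, all 7 processing genes, both class II partners and H2-Ke6. The 6 genes not well above background on any array were the class I genes H2-M10.1, H2-M10.2, H2-M10.3 and H2-M10.6, of a family known from vomeronasal neurons, and the class II genes H2-DMb2 and H2-Ea. H2-Ea codes for the α chain that pairs with the product of H2-Eb1, and several laboratory haplotypes do not transcribe it. The probe of H2-Eb1 was well above background on all 6 arrays. Whether strain differences from the probe sequences changed any MHC signal was not tested.

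**Figure D1:**
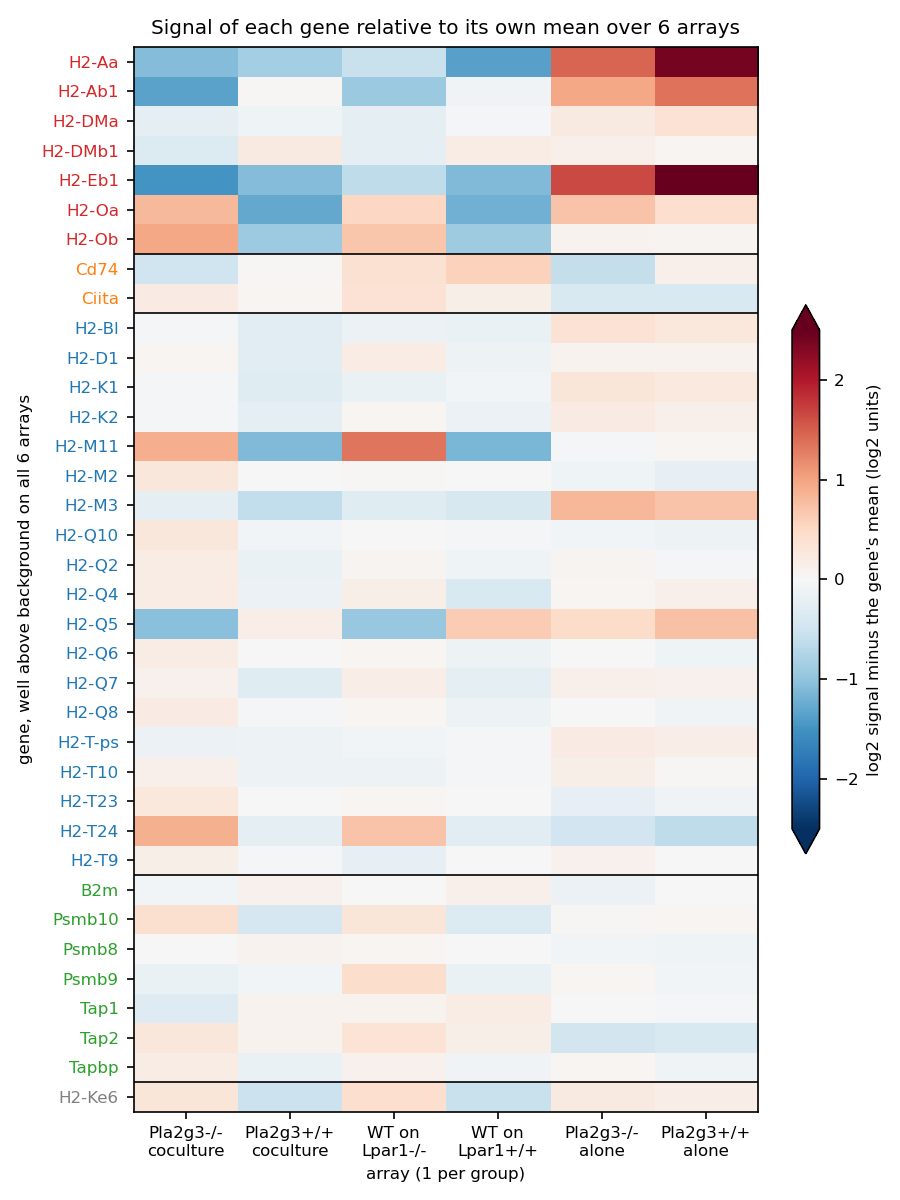
Heat map of the 36 genes well above background on all 6 arrays (rows, grouped as class II, class II partners, class I, processing and H2-Ke6) by array (columns, 1 per group). Colour is the log2 signal minus the mean of that gene over the 6 arrays, so rows show variation within a gene and not levels between genes. H2-Aa and H2-Eb1 are lowest in the 4 cocultures, while H2-Oa, H2-Ob and H2-M11 separate the cocultures from each other.

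The probes of class I genes are harder to assign to 1 gene than those of class II genes. A run of at least 20 identical bases was shared with a probe of another gene by 7 of the 30 class I probes and by 0 of the 10 class II probes. The probes of H2-Q6 and H2-Q8, neighbouring genes of the Qa region, show how far this goes. Both lie on the plus strand of chromosome 17 (mm9), at 35565253 to 35565312 and at 35565247 to 35565306, and capitals mark the 54 bases they share.
H2-Q6: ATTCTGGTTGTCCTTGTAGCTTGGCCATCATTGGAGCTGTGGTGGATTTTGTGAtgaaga
H2-Q8: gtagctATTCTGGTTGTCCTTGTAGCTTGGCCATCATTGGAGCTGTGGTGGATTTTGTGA
Signals of these 2 genes are therefore 1 measurement rather than a pair. The probe of H2-T23 (Qa-1, the ligand of CD94 and NKG2 receptors) shares 29 bases with a probe of H2-K1, and that of H2-Q7 (Qa-2) shares 28 bases with a probe of H2-K2.
The probes of the genes on which the results below turn share no such run, and 3 of them are given here because they carry the coculture and genotype differences. The H2-Aa probe lies on the minus strand at chromosome 17, 34421285 to 34421344, that of H2-Oa on the plus strand at 34232033 to 34232092, and that of H2-M11 on the plus strand at 36685754 to 36685813 (mm9).
H2-Aa: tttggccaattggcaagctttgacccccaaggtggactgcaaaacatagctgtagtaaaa
H2-Oa: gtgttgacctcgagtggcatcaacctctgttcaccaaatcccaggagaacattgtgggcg
H2-M11: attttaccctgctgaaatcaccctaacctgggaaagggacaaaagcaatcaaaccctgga

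Coculture was compared with cells alone for the presentation genes. Fibroblast contact, fibroblast RNA, the 4 days of coculture with stem cell factor and the slide cannot be told apart in this comparison. In mast cells labelled Pla2g3-/-, 3 of 8 class II genes compared were at least 2-fold lower in coculture and 1 was higher. The background was 7.28% of 22342 genes lower and 11.4% higher. The median of the class II genes was -0.45, against -0.02 over 21 class I genes, 0.09 over 7 processing genes and 0.12 over all genes compared. Class I had 2 genes lower and 1 higher. In Pla2g3+/+ mast cells, 4 of 8 class II genes were lower in coculture and 0 were higher, with a background of 7.52% of 22612 genes lower and 13.0% higher. The class II median there was -1.16, against -0.07 over 24 class I genes, 0.11 over 7 processing genes and 0.13 over all genes compared. Class I again had 2 genes lower and 1 higher, and no processing gene passed 2-fold in either genotype. Restricted to genes well above background on all 6 arrays, a setting added after the data were seen, the class II medians were -0.46 in labelled Pla2g3-/- and -1.34 in Pla2g3+/+ cells over 7 genes. The class I medians over 19 genes were 0.03 in labelled Pla2g3-/- and -0.29 in Pla2g3+/+ cells.

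H2-Eb1, the class II E β chain, showed the largest coculture difference among these genes. It read -5.42 in labelled Pla2g3-/- cocultures, -5.01 in Pla2g3+/+ cocultures, -4.56 on Lpar1-/- fibroblasts and -5.03 on Lpar1+/+ fibroblasts, against -2.27 in labelled Pla2g3-/- cells alone and -1.26 in Pla2g3+/+ cells alone. All 4 cocultures lay below both arrays without fibroblasts. The difference was -3.15 in labelled Pla2g3-/- cells (8.91-fold lower) and -3.75 in Pla2g3+/+ cells (13.4-fold lower). It was past 2-fold in every setting tried, but shrank to as little as -1.69 in labelled Pla2g3-/- and -2.57 in Pla2g3+/+ cells.

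H2-Aa, the class II A α chain, read -7.40 in labelled Pla2g3-/- cocultures, -7.16 in Pla2g3+/+ cocultures, -6.87 on Lpar1-/- fibroblasts and -7.67 on Lpar1+/+ fibroblasts. In cells alone it read -4.87 with the Pla2g3-/- label and -3.93 in Pla2g3+/+ cells. Again no coculture reached the level of either array without fibroblasts. The coculture difference was -2.53 in labelled Pla2g3-/- cells (5.78-fold lower) and -3.22 in Pla2g3+/+ cells (9.34-fold lower). H2-Aa is dim in coculture, and with normexp background correction the difference shrank to -0.42 in labelled Pla2g3-/- cells, within 2-fold, and to -1.07 in Pla2g3+/+ cells.

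H2-Ab1, the partner β chain of H2-Aa, read -1.5 in labelled Pla2g3-/- cocultures, -0.14 in Pla2g3+/+ cocultures, -1.09 on Lpar1-/- fibroblasts and -0.24 on Lpar1+/+ fibroblasts, against 0.81 and 1.20 in labelled Pla2g3-/- and Pla2g3+/+ cells alone. The coculture difference was -2.31 in labelled Pla2g3-/- cells and -1.34 in Pla2g3+/+ cells. For H2-Ab1, unlike H2-Aa and H2-Eb1, the labelled Pla2g3-/- coculture and the Lpar1-/- coculture both read lower than either wild-type coculture. Its second probe gave -2.30 in labelled Pla2g3-/- and -1.56 in Pla2g3+/+ cells for the coculture difference.

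The peptide editor and the class II partners moved little. H2-DMa, the DM α chain, differed in coculture by -0.44 in labelled Pla2g3-/- and -0.47 in Pla2g3+/+ cells. H2-DMb1, a DM β chain, differed by -0.46 in labelled Pla2g3-/- and 0.18 in Pla2g3+/+ cells. Cd74, the invariant chain, read -2.56 in labelled Pla2g3-/- cocultures, -2.05 in Pla2g3+/+ cocultures, -1.69 on Lpar1-/- fibroblasts and -1.5 on Lpar1+/+ fibroblasts, against -2.66 and -1.95 in labelled Pla2g3-/- and Pla2g3+/+ cells alone. These values overlap between cocultures and cells alone, and the coculture differences were 0.10 in labelled Pla2g3-/- and -0.10 in Pla2g3+/+ cells. Ciita, the coactivator of class II genes, was dim throughout. It read between -5.03 and -4.72 in the 4 cocultures and -5.45 on both arrays without fibroblasts, with coculture differences of 0.58 in labelled Pla2g3-/- and 0.42 in Pla2g3+/+ cells. Of the 3 Ciita probes, the dimmer ones gave 0.23 and 0.20 in labelled Pla2g3-/- cells and 0.63 and -0.04 in Pla2g3+/+ cells. The structural genes H2-Aa, H2-Ab1 and H2-Eb1 were lower in coculture, whereas Cd74 and Ciita stayed within 2-fold. The part of Ciita in the class II differences was not tested.

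**Figure D2:**
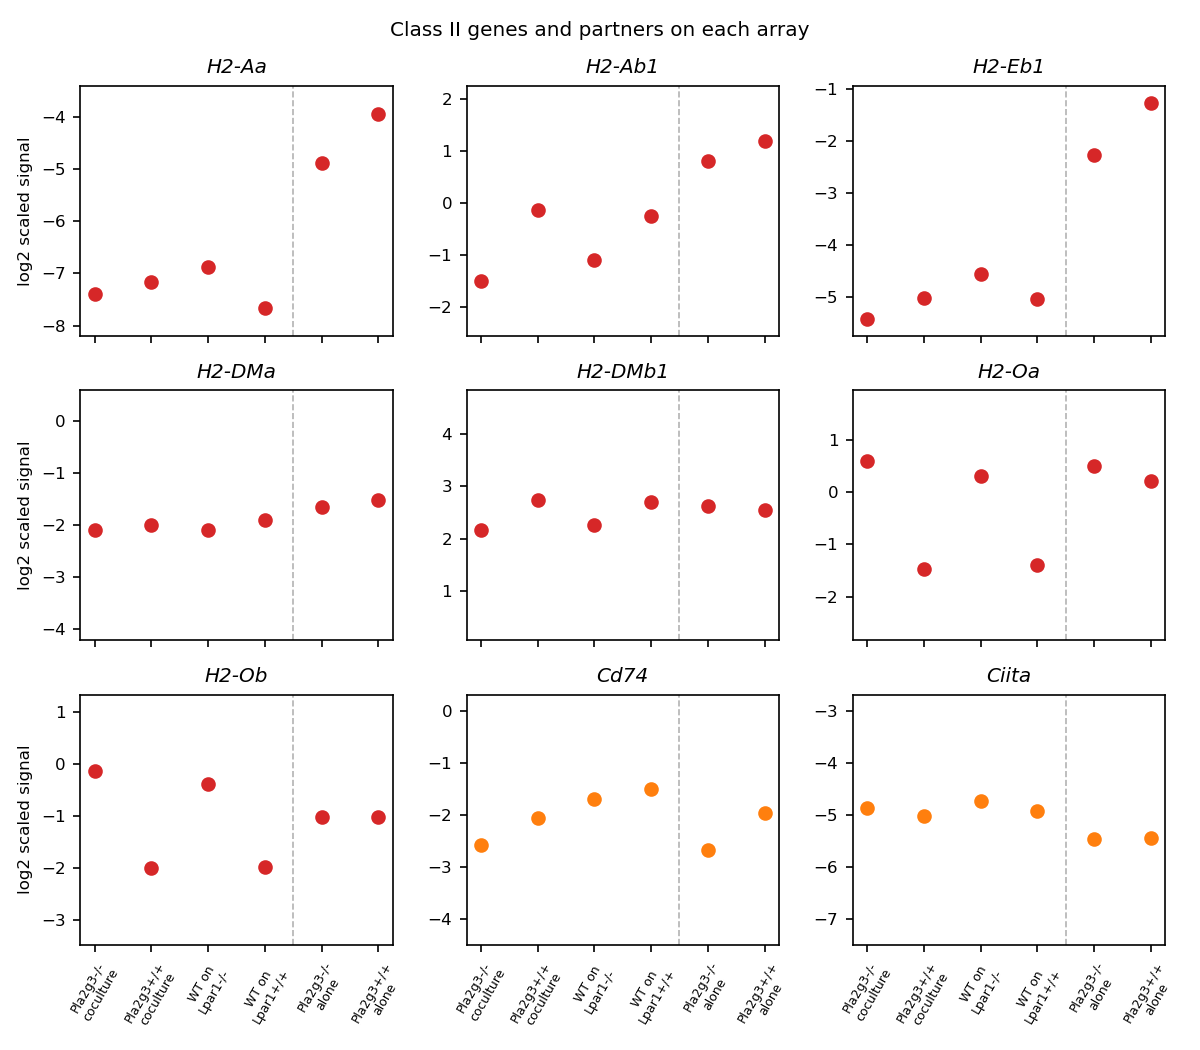
Log2 scaled signal (vertical axis, the same span of log2 units in every panel) of 7 class II genes (red) and the partners Cd74 and Ciita (orange) on the 6 arrays (horizontal axis, 1 point per array); the dashed line parts the 4 cocultures from the 2 arrays without fibroblasts. H2-Aa, H2-Ab1 and H2-Eb1 lie lower in every coculture, whereas H2-Oa and H2-Ob lie low on the 2 arrays of wild-type cocultures.

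The H2-DO chains took another course. H2-Oa read 0.60 in labelled Pla2g3-/- cocultures, -1.48 in Pla2g3+/+ cocultures, 0.32 on Lpar1-/- fibroblasts and -1.40 on Lpar1+/+ fibroblasts, against 0.52 and 0.22 in labelled Pla2g3-/- and Pla2g3+/+ cells alone. H2-Ob read -0.13 in labelled Pla2g3-/- cocultures, -2.0 in Pla2g3+/+ cocultures, -0.39 on Lpar1-/- fibroblasts and -1.97 on Lpar1+/+ fibroblasts, against -1.01 and -1.02 in labelled Pla2g3-/- and Pla2g3+/+ cells alone. In both wild-type cocultures each gene read lower than on any other array. The coculture difference of H2-Oa was 0.08 in labelled Pla2g3-/- cells and -1.70 in Pla2g3+/+ cells. That of H2-Ob was 0.88 in labelled Pla2g3-/- cells and -0.98 in Pla2g3+/+ cells, both within 2-fold. The second H2-Ob probe gave 0.83 in labelled Pla2g3-/- cells and -0.07 in Pla2g3+/+ cells, so the lower signal in Pla2g3+/+ cocultures was not shared by both probes.

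Over all genes well above background on all 6 arrays, 2 of 7 class II genes (H2-Aa and H2-Eb1) and 0 of 19 class I genes read at least 2-fold lower in each of the 4 cocultures than on either array without fibroblasts. The background for this was 1.55% of 19705 genes. With normexp correction the coculture difference of H2-Aa in labelled Pla2g3-/- cells was -0.42, so H2-Aa did not keep the 2-fold gap there. Without the 2-fold gap, 4 of 7 class II and 5 of 19 class I genes lay lower in all 4 cocultures, with a background of 18.4%. The class I genes were H2-K1, H2-K2, H2-M3, H2-Bl and H2-T-ps. For H2-K1 this held for the brightest probe only. Another of its probes read 4.30 in labelled Pla2g3-/- cocultures, against 4.29 and 4.21 in labelled Pla2g3-/- and Pla2g3+/+ cells alone. In the other direction, 7 of 36 genes (Ciita, H2-M2, H2-Q10, H2-T23, H2-T24, Psmb8 and Tap2) lay higher in all 4 cocultures, beside a background of 28.2%, and 0 of 36 did so by 2-fold, beside 2.84%.

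**Figure D3:**
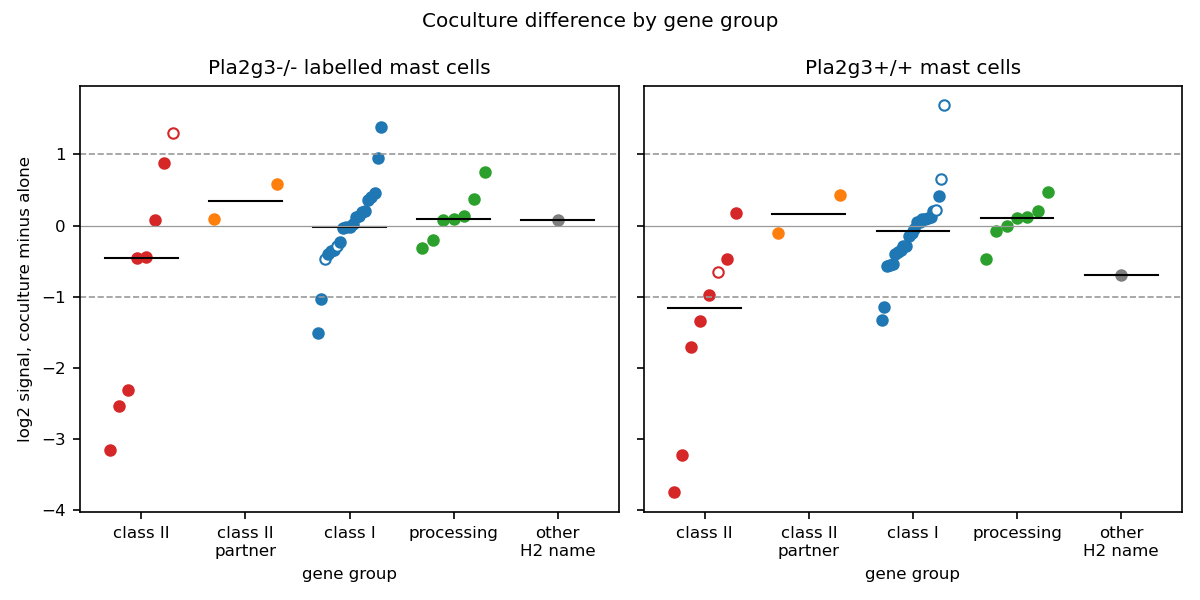
Coculture minus alone, in log2 units, for each gene (points) by gene group, in mast cells labelled Pla2g3-/- (left) and Pla2g3+/+ mast cells (right). Open circles are bounds where 1 array was not well above background, black lines are group medians and dashed lines mark 2-fold. The points farthest below the lower line are the class II genes H2-Eb1 and H2-Aa, and the processing genes stay within 2-fold.

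Classical class I genes changed by less than 2-fold in coculture. H2-K1, a classical class I heavy chain, read 5.42 in labelled Pla2g3-/- cocultures, 5.17 in Pla2g3+/+ cocultures, 5.30 on Lpar1-/- fibroblasts and 5.40 on Lpar1+/+ fibroblasts, against 5.77 and 5.71 in labelled Pla2g3-/- and Pla2g3+/+ cells alone. The H2-K1 probe was printed in 10 spots, whose SD within an array was between 0.03 and 0.09. Coculture differences of H2-K1 were -0.35 in labelled Pla2g3-/- and -0.54 in Pla2g3+/+ cells. The dimmer H2-K1 probes gave 0.02 and 0.24 in labelled Pla2g3-/- cells and -0.07 and -0.09 in Pla2g3+/+ cells. H2-D1, the other classical heavy chain in the list, differed by -0.02 in labelled Pla2g3-/- and -0.37 in Pla2g3+/+ cells. Its level was 4.75 or above on every array. B2m, the light chain shared by all class I molecules, read between 5.98 and 6.17 in the cocultures and at 5.90 and 6.04 in labelled Pla2g3-/- and Pla2g3+/+ cells alone, a span within the yardstick range.

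Among nonclassical class I genes, H2-M3, which presents formylated peptides, was lower in every coculture. It read -0.47 in labelled Pla2g3-/- cocultures, -0.86 in Pla2g3+/+ cocultures, -0.54 on Lpar1-/- fibroblasts and -0.66 on Lpar1+/+ fibroblasts, against 0.57 and 0.46 in labelled Pla2g3-/- and Pla2g3+/+ cells alone. The differences of -1.04 in labelled Pla2g3-/- and -1.32 in Pla2g3+/+ cells were both past 2-fold. The first passed narrowly and was -0.96 with normexp correction. H2-M11 was lower in Pla2g3+/+ cocultures by -1.15 (-0.95 with normexp correction). In labelled Pla2g3-/- cells H2-T24 was higher in coculture by 1.38 and H2-Q5 lower by -1.5. H2-M5 was at least 3.22-fold higher in Pla2g3+/+ cocultures and was well above background on only 3 arrays. Its second probe differed by 0.21 in the same comparison. H2-Eb2, a class II β chain gene, was at least 2.47-fold higher in labelled Pla2g3-/- cocultures and was also measured on 3 arrays. With normexp correction neither bound reached 2-fold.

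Tap2, a subunit of the peptide transporter, was the processing gene with the largest coculture difference in labelled Pla2g3-/- cells. It read 5.36 in labelled Pla2g3-/- cocultures, 5.15 in Pla2g3+/+ cocultures, 5.41 on Lpar1-/- fibroblasts and 5.21 on Lpar1+/+ fibroblasts, against 4.61 and 4.69 in labelled Pla2g3-/- and Pla2g3+/+ cells alone. All 4 cocultures lay above both arrays without fibroblasts, by less than 2-fold. Tap1, the other subunit, differed by -0.31 in labelled Pla2g3-/- and 0.11 in Pla2g3+/+ cells. Psmb8, an immunoproteasome subunit, spanned only 0.21 over the 6 arrays.

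Coculture RNA held signal of fibroblast markers, so it cannot be taken as that of mast cells alone. Of 12 fibroblast markers, 9 of 10 compared were higher in coculture in both mast cell genotypes, with medians of 7.03 in labelled Pla2g3-/- and 8.05 in Pla2g3+/+ cells. Their summed linear scaled signal was 15.8 to 36.0 in the 4 cocultures and 0.132 and 0.175 in labelled Pla2g3-/- and Pla2g3+/+ cells alone. Neutrophil and eosinophil markers were lower in labelled Pla2g3-/- cocultures for 5 of 9 genes compared, with a median of -1.10, and in Pla2g3+/+ cocultures for 9 of 10, with a median of -4.39. In these bulk RNAs, fewer cells of a type and less RNA per cell cannot be told apart. Macrophage and monocyte markers were mixed, with 3 higher and 3 lower of 12 in labelled Pla2g3-/- cocultures, and 3 higher and 4 lower of 12 in Pla2g3+/+ cocultures. Their summed signal was 6.55 to 50.9 in the cocultures, 18.2 in labelled Pla2g3-/- cells alone and 20.1 in Pla2g3+/+ cells alone, and it was mostly that of Cx3cr1. In Pla2g3+/+ cells the macrophage markers Adgre1 and Fcgr1 were lower in coculture by -2.44 each and Cx3cr1 by -1.85, while Mrc1 was higher by 3.28, C1qc by 2.70 and Cd14 by 2.02. The defining dendritic cell markers Xcr1, Clec9a and Cd209a and the B cell marker Ms4a1 were not well above background on any array. Other members of these lists were well above it on all 6 arrays, namely 6 of the 10 dendritic cell genes (Flt3, Itgax, Zbtb46, Siglech, Ccr7 and Clec10a) and 4 of the 8 B cell genes (Cd79a, Cd79b, Blnk and Cr2). The level of Siglech was 4.86 to 5.54. The summed signal of the dendritic cell list was 41.9 to 65.1 in the cocultures, 35.5 in labelled Pla2g3-/- cells alone and 40.4 in Pla2g3+/+ cells alone, and that of the B cell list 1.12 to 1.95, 0.680 and 0.761. The part of fibroblast, granulocyte or macrophage RNA in the coculture differences was not tested.

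The regulators of both classes were examined from lists of 9 genes each. Beside them, 11.4% of all genes compared were higher and 7.28% lower in labelled Pla2g3-/- cocultures. In Pla2g3+/+ cocultures 13.0% were higher and 7.52% lower. Of the class II regulators, 2 were higher and 0 lower in labelled Pla2g3-/- cocultures, and 1 was higher and 0 lower in Pla2g3+/+ cocultures. The pair were Rfx5 at 1.53 and Rfxank at 1.16, both subunits of the RFX complex that binds the X box. The other was Creb1, a factor that binds within the X box region, at 1.15. Of the class I and interferon regulators, Irf1 was higher in coculture in both genotypes, by 1.55 in labelled Pla2g3-/- and 1.14 in Pla2g3+/+ cells, while Irf9 and Stat2 were each lower by -1.04 in Pla2g3+/+ cells. Nlrc5, the coactivator of class I genes, was lower by -1.73 in labelled Pla2g3-/- cocultures. On the class II route, Ctsl and Lgmn, both lysosomal proteases, were higher in coculture by 3.40 and 2.94 in labelled Pla2g3-/- cells and by 2.99 and 2.20 in Pla2g3+/+ cells. Cd1d1, which presents lipids, was lower by -2.50 in Pla2g3+/+ cells.

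Promoters of 5 class II genes carry a shared motif, among them pairs of genes with different courses. Promoter sequences were taken from RefSeq on GRCm38.p6 for the 36 genes found in that table, and the 200 bases upstream of the start were searched on both strands. An X and Y box pair, searched as GCAAC followed within 40 bases by TGATTGG, was found in 5 of 8 class II promoters (H2-Aa, H2-Eb1, H2-Eb2, H2-Oa and H2-Ob), 0 of 21 class I promoters and 0.265% of 32851 promoters. The letters of these motifs were chosen after the promoters had been seen. Capitals mark the 2 boxes in 4 class II promoters on chromosome 17, which are shown because H2-Aa and H2-Eb1 followed one course over the arrays and H2-Oa and H2-Ob another. They lie at 34287824 to 34288023 (minus strand), 34305667 to 34305866, 34092179 to 34092378 and 34238705 to 34238904 (plus strand), in the order printed.
H2-Aa: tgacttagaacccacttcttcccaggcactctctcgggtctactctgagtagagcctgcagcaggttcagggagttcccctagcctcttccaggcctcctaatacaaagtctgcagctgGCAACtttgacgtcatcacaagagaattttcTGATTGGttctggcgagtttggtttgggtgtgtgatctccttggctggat
H2-Eb1: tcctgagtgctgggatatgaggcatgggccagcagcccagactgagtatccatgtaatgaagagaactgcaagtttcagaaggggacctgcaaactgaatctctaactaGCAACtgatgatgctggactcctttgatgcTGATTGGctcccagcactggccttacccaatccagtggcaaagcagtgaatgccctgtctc
H2-Oa: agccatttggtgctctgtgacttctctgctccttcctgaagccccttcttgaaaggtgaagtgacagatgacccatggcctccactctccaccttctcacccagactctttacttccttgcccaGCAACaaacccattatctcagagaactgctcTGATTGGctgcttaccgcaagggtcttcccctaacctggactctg
H2-Ob: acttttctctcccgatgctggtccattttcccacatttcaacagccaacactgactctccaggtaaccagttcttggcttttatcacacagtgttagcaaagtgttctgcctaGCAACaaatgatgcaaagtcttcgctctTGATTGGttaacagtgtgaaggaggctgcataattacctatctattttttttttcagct
The gap between the boxes was 26 bases in H2-Aa and H2-Oa, 25 in H2-Eb1 and 23 in H2-Ob. The Y box letters alone, which overlap the pair, were in 7 of 8 class II, 13 of 21 class I and 6.57% of all promoters.
Enhancer A, an NF-κB site of classical class I promoters searched as GGGGA directly followed by TTCCC, was in 4 of 21 class I promoters (H2-D1, H2-K1, H2-Q6 and H2-Q7), 0 of 8 class II and 0.0670% of all promoters. The H2-K1 promoter at 34000334 to 34000533 (minus strand) is shown with this site in capitals, as the class I counterpart of the sequences above.
H2-K1: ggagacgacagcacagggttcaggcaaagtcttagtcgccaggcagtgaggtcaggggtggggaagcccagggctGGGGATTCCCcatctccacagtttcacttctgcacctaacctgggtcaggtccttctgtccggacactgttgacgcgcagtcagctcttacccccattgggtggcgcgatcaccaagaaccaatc
A match describes the letters of these windows and is no evidence that a factor was bound.

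Mast cells labelled Pla2g3-/- were compared with Pla2g3+/+ mast cells alone, within a slide. In this comparison 1 gene of 40 compared, H2-Eb1, was past 2-fold. It was lower at -1.01 and within 2-fold after normexp correction or quantile normalization, with a background of 1.57% of 21731 genes lower and 0.414% higher. H2-Aa differed by -0.94 and Cd74 by -0.72, both within 2-fold and both outside the yardstick range, whereas Ciita differed by -0.01. The class II median was -0.27 over 8 genes, against 0.08 over 22 class I genes. H2-K1 differed by 0.07 and H2-D1 by -0.01. Macrophage and monocyte markers were lower for 5 of 12 genes, with a median of -0.65, and neutrophil and eosinophil markers for 9 of 10, with a median of -4.34. Ctss, a protease that trims the invariant chain, differed by -1.46 and Irf8 by -2.45. The part of these cells in the class II differences was not tested.

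In coculture, the label comparison gave 8 of 42 genes past 2-fold, 5 of them higher and 3 lower in labelled Pla2g3-/- cells. The background was 9.11% of 22497 genes higher and 10.4% lower. Class II was split, with 3 of 8 genes higher, 1 lower and a median of -0.18, against 2 of 24 class I genes higher, 2 lower and a median of 0.24. H2-Oa was higher by 2.07 (4.21-fold), H2-Ob by 1.87 (3.67-fold) and H2-Eb2 at least 2.39-fold, whereas H2-Ab1 was lower by -1.36 (2.57-fold). H2-Aa and H2-Eb1 differed by -0.24 and -0.41, within the yardstick range, and H2-Aa was at 0.21 with normexp correction. Of the class I genes, H2-M11 was higher by 2.00 and H2-T24 by 1.11, and H2-Q5 was lower by -1.22 and H2-M5 at least 3.22-fold. The H2-Oa and H2-M11 calls held in every setting tried, while H2-Ob was at 0.61 when all of its probes were averaged, 1 of which was never well above background. Its second probe gave 0.99. The second H2-M5 probe gave a bound of -0.50. With normexp correction H2-Q5 read -0.63, and the bounds of H2-Eb2 and H2-M5 no longer reached 2-fold.

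Lpar1-/- fibroblasts were compared with Lpar1+/+ fibroblasts as the partners of wild-type mast cells. Here 6 of 44 genes were past 2-fold, with 4 higher and 2 lower on Lpar1-/- fibroblasts, beside a background of 11.3% higher and 8.86% lower of 24539 genes. Class II had 3 of 8 genes higher, 0 lower and a median of 0.63, against 1 of 26 class I genes higher, 2 lower and a median of 0.08. H2-Oa was higher by 1.72 (3.30-fold), H2-Ob by 1.59 (3.00-fold) and H2-Eb2 at least 4.60-fold. H2-Ob was at 0.98 as the mean of its probes, and the bound of H2-Eb2 did not reach 2-fold with normexp correction. H2-Aa and H2-Eb1 were at 0.80 and 0.47, and H2-Ab1 at -0.85, with H2-Aa at 0.08 after normexp correction. Of the class I genes, H2-M11 was higher by 2.48 (5.58-fold), H2-Q5 lower by -1.59 and H2-Q1 at least 3.85-fold lower, a bound of -0.29 with normexp correction. When the Pla2g3+/+ coculture array stood in for the Lpar1+/+ array, the class II median was 0.37.

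H2-M11, a nonclassical class I gene, was among those that differed most between cocultures. It read -2.13 in labelled Pla2g3-/- cocultures against -4.13 in Pla2g3+/+ cocultures, and -1.70 on Lpar1-/- fibroblasts against -4.19 on Lpar1+/+ fibroblasts. In cells alone it read -3.08 with the Pla2g3-/- label and -2.99 in Pla2g3+/+ cells. The labelled Pla2g3-/- and Lpar1-/- cocultures thus lay above the cells alone, and the wild-type cocultures below them. H2-T24 read -0.80 in labelled Pla2g3-/- cocultures against -1.92 in Pla2g3+/+ cocultures, and -0.97 on Lpar1-/- fibroblasts against -1.95 on Lpar1+/+ fibroblasts. H2-Q5 went the other way. It read -4.02 in labelled Pla2g3-/- cocultures against -2.81 in Pla2g3+/+ cocultures, and -3.92 on Lpar1-/- fibroblasts against -2.33 on Lpar1+/+ fibroblasts.

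Both coculture comparisons share no array, and they ran alike for the presentation genes as they did for the whole array. Over the 36 genes compared as values in both, Pearson's r was 0.88 and Spearman's rho 0.67, and 29 (80.6%) had the same sign. Over 20723 genes, r was 0.86, rho was 0.83 and 81.9% had the same sign. By r and by sign the likeness is that of genes in general, and by rho it was weaker. All 4 arrays lay on 1 slide. Among genes well above background on all 6 arrays, H2-M11, H2-Oa and H2-Ob read at least 2-fold higher in both the labelled Pla2g3-/- and the Lpar1-/- coculture than in either wild-type coculture, 3 of 36 beside a background of 7.40%. H2-Q5 read at least 2-fold lower, 1 of 36 beside a background of 5.82%. Without the 2-fold gap, 14 of 19 class I genes and 2 of 7 class II genes read higher in both the labelled Pla2g3-/- and the Lpar1-/- coculture than in either wild-type coculture, beside a background of 35.6%. For most of these class I genes the differences were small: the class I median over the 19 genes was 0.25 for the label and 0.11 for the fibroblasts. The 14 class I genes include H2-Q6 and H2-Q8, whose signals are 1 measurement. They also include H2-Q2, H2-Q7 and H2-T23, whose probes share runs of bases with probes of other genes. In the lower direction the counts were 1 of 19 class I genes (H2-Q5) and 3 of 7 class II genes (H2-Ab1, H2-DMa and H2-DMb1), beside a background of 38.9%.

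**Figure D4:**
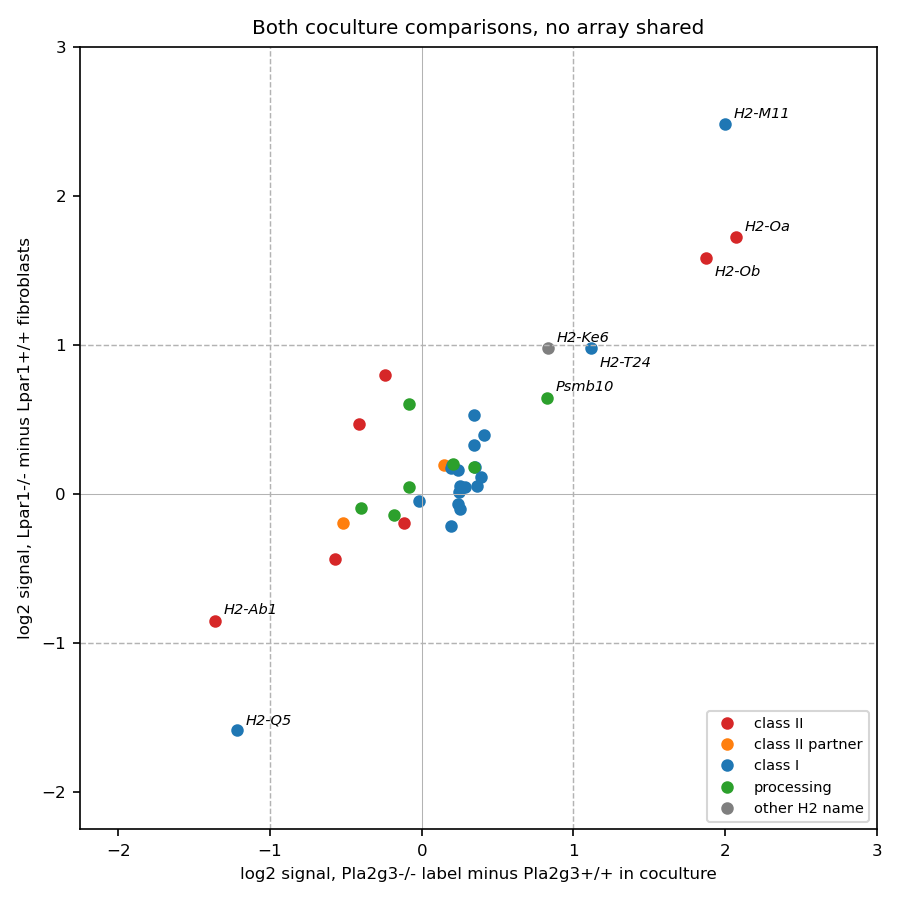
Log2 difference of the labelled Pla2g3-/- coculture over the Pla2g3+/+ coculture (horizontal axis) against that of Lpar1-/- over Lpar1+/+ fibroblasts (vertical axis), 1 point for each of 36 genes, coloured by gene group. Dashed lines mark 2-fold. H2-M11, H2-Oa and H2-Ob lie at the upper right and H2-Q5 at the lower left, while most class I genes lie close to 0 on both axes.

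No processing gene passed 2-fold in either coculture comparison. Psmb10, the immunoproteasome subunit also called MECL-1, came closest. It read 3.28 in labelled Pla2g3-/- cocultures against 2.45 in Pla2g3+/+ cocultures, and 3.18 on Lpar1-/- fibroblasts against 2.53 on Lpar1+/+ fibroblasts. The cells alone read 2.90 and 2.93 with the Pla2g3-/- label and in Pla2g3+/+ cells. H2-Ke6 differed in the same direction, by 0.83 for the label and 0.98 for the fibroblast comparison. Tapbp, which codes for tapasin, differed by less than the yardstick range in all comparisons. Of the loading factors outside the list, the chaperones Calr and Hspa5 were lower in labelled Pla2g3-/- cocultures by -1.26 and -1.46 and on Lpar1-/- fibroblasts by -1.39 and -1.57. They were the 2 of 10 peptide loading genes past 2-fold in both. No constitutive proteasome gene of 6 passed 2-fold in any comparison.

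Some regulators and genes of the class II route were past 2-fold between cocultures. Of 9 class II regulators, 1 was higher and 0 lower for the label, and 3 higher and 0 lower for the fibroblasts. Of 12 class II route genes, 2 were higher and 2 lower for the label, and 2 higher and 3 lower for the fibroblasts. The share of all genes was 9.11% higher and 10.4% lower for the label, and 11.3% higher and 8.86% lower for the fibroblasts. Rfx5 was higher by 1.99 in labelled Pla2g3-/- over Pla2g3+/+ cocultures and by 1.51 on Lpar1-/- over Lpar1+/+ fibroblasts, the 1 class II regulator of 9 past 2-fold in the first. In the second Rfxap at 1.07 and Rfxank at 1.01 were also past it. Of 9 class I and interferon regulators, 1 was higher and 2 lower for the label, and 1 higher and 0 lower for the fibroblasts. Nlrc5 was lower by -2.12 in labelled Pla2g3-/- cocultures, while H2-K1 and H2-D1 in the same comparison were at 0.25 and 0.34. On Lpar1-/- fibroblasts Nlrc5 read -5.01 against -4.21 on Lpar1+/+ fibroblasts. Irf8 was also lower for the label, at -9.04 (not well above background) against -5.84. Stat2 was the higher one, at 1.84 against 0.58 for the label and 1.93 against 0.64 for the fibroblasts. The part of these regulators in the class I signal was not tested. Ctss read -3.68 in labelled Pla2g3-/- cocultures against -0.05 in Pla2g3+/+ cocultures, and -2.99 on Lpar1-/- fibroblasts against -0.20 on Lpar1+/+ fibroblasts. Cd1d1 was higher by 1.74 and 2.31 in these 2 comparisons. Costimulatory genes were lower where they passed 2-fold, with Icosl at -1.10 for the label and -1.65 for the fibroblasts. Beside these values, the summed signal of mast cell markers was 587 in labelled Pla2g3-/- against 609 in Pla2g3+/+ cocultures, and 501 on Lpar1-/- against 584 on Lpar1+/+ fibroblasts. Of these 10 markers 3 (Hdc, Tpsb2 and Mcpt4) were past 2-fold lower in each comparison. Hdc read 0.46 in labelled Pla2g3-/- against 2.75 in Pla2g3+/+ cocultures, and -0.97 on Lpar1-/- against 2.32 on Lpar1+/+ fibroblasts. The summed signal of fibroblast markers was 15.8 against 34.9 and 32.3 against 36.0, and that of macrophage and monocyte markers 50.9 against 6.89 and 36.6 against 6.55. Of the fibroblast list, 0 genes were higher and 5 lower of 10 for the label (median -0.90). On Lpar1-/- fibroblasts 3 were higher and 0 lower of 11 (median -0.08). The macrophage sum was mostly that of Cx3cr1, which was higher by 3.30 for the label and 2.86 for the fibroblasts. Of the macrophage list, 1 gene was higher and 4 lower of 12 for the label (median -0.60), and 1 higher and 3 lower of 13 for the fibroblasts (median 0.05). Among the lower ones, Mrc1 had a bound of -5.71 for the label and differed by -5.24 for the fibroblasts, and Mpeg1 differed by -3.58 and -1.22. Neutrophil and eosinophil markers had 3 of 8 genes lower and none higher in labelled Pla2g3-/- cocultures (median -0.60), and 7 of 8 higher and none lower on Lpar1-/- fibroblasts (median 1.95). Their summed signal was 1.86 in labelled Pla2g3-/- against 4.17 in Pla2g3+/+ cocultures, and 13.3 on Lpar1-/- against 4.51 on Lpar1+/+ fibroblasts. The dendritic cell list, of which 7 genes were compared, had Itgax higher by 2.93 and 2.66 and Clec10a lower by -4.96 and -5.38. The B cell list had Cr2 higher by 2.06 and 2.86 and Cd79b lower by -1.17 and -1.5. Their part in the differences of the presentation genes was not tested.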

How the data were processed

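Messenger RNA was measured on 6 single-colour arrays, 1 per group, each of an RNA pooled from 3 samples. The authors' scanner files hold spot intensity. Their headers name Agilent Feature Extraction 12.1.1.1 and record detrending, background subtraction and surrogate values for dim spots. The deposited table gives signal on a linear scale, which equalled the processed intensity divided by 1 constant per array (medians over the array from 0.0338 to 0.0483, with no centring). It was used as an alternative.

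Log2 of the processed intensity of the deposited files was reduced by the 75th percentile of each array over 43020 noncontrol spots (Python 3.11.15, pandas 2.3.3, numpy 2.4.6). Outlier spots were dropped (84 to 115 per array), spots of a probe averaged, and the probe brightest over the 6 arrays taken. Genes are named as in the files, and 46 of 50 accessions matched the gene table. Coordinates of probes are mm9. Genes entered a comparison with either array well above background. Where 1 array was not, the difference is a bound against the higher of that array's lowest signal among probes well above background and the probe's own. The scanner's error model gave a median error of 0.20 for a difference, which covers spots and not cultures. The number of arrays limits the precision. The comparison step was tested on simulated data. Alternatives were normexp background correction (limma 3.58.1, R 4.3.3, offset 50), quantile normalization, the deposited table, the mean of probes, other filters on dim probes, 1.5-fold and the other wild-type coculture array. All genes of the list were eligible to be named, and of each context list up to 4 past 2-fold per comparison, other genes being given as values. The members and lists were chosen with earlier results of these data known. Comparisons that share an array are not independent of each other.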

Additional observations from a re-analysis of the deposited data

Results flagged for a closer look

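For 3 genes the coculture difference lay outside the yardstick range in both mast cell genotypes, in opposite directions, and the difference between genotypes was not tested, since each group is 1 array. H2-Eb2 differed by at least 1.30 in mast cells labelled Pla2g3-/- and by a bound of -0.65 in Pla2g3+/+ mast cells. H2-M11 differed by 0.95 in labelled Pla2g3-/- and -1.15 in Pla2g3+/+ mast cells. H2-Ob differed by 0.88 in labelled Pla2g3-/- and -0.98 in Pla2g3+/+ mast cells. The second H2-Ob probe gave 0.83 and -0.07, the latter within the yardstick range. With normexp correction the H2-Eb2 value in labelled Pla2g3-/- cells was 0.18.

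Dimmer probes of some genes also passed 2-fold. The second H2-Ab1 probe gave -2.30 for coculture in labelled Pla2g3-/- cells, -1.56 for coculture in Pla2g3+/+ cells and -1.23 for the label in coculture, beside -2.31, -1.34 and -1.36 for the brightest. Another H2-Ob probe gave 1.01 for Lpar1-/- fibroblasts, beside 1.59. The second H2-T24 probe gave 1.59 for coculture in labelled Pla2g3-/- cells, beside 1.38. For H2-Q10, Psmb9 and H2-M2 the probes disagreed. The dim H2-Q10 probe gave 2.14 for coculture in labelled Pla2g3-/- cells, 2.44 for the label in coculture and 1.5 for Lpar1-/- fibroblasts, beside 0.36, 0.36 and 0.05 for the brightest. The dim Psmb9 probe gave -1.55 for coculture in Pla2g3+/+ cells, 1.62 for the label in coculture and 2.00 for Lpar1-/- fibroblasts, beside -0.01, -0.08 and 0.60 for the brightest. The dim H2-M2 probe gave bounds of -1.31 for coculture in labelled Pla2g3-/- cells, -1.64 for the label in coculture and -2.74 for Lpar1-/- fibroblasts, beside 0.40, 0.29 and 0.05 for the brightest.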

How the results depend on the processing

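No paired analysis was possible because each group has 1 array. Of 119 recomputed medians and counts for 15 results, 105 moved by less than the yardstick SD or by less than 1.5 times, and 0 reversed among called values. With 1.5-fold in place of 2-fold, 11 genes were called for coculture of Pla2g3+/+ cells, 4 for the label without fibroblasts and 13 for Lpar1-/- fibroblasts. With normexp correction, 4 were called for coculture of labelled Pla2g3-/- cells, 0 for the label without fibroblasts (1 by the main setting) and 5 for the label in coculture. The class II median was then 0.13 for the label in coculture (-0.18 by the main setting) and 0.14 for Lpar1-/- fibroblasts. With quantile normalization 0 genes were called for the label without fibroblasts. With the other wild-type array the class II median for Lpar1-/- fibroblasts was 0.37. For coculture of labelled Pla2g3-/- cells the class II median was -0.79 with the mean of probes and -0.19 without a filter, where 11 genes were called, and 5 for the label without fibroblasts. The median of all genes in coculture of Pla2g3+/+ cells was 0.13, -0.01 with normexp correction and 0.00 with quantile normalization. Of 29 calls, 16 held in every setting. The causes were not tested. Dim probes limit H2-Aa, H2-Eb2, H2-M5 and H2-Q1, whose values rest on signal near background.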
